A study of Mus musculus with 72 samples.

Results

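The 44 genes described here encode cytokines, chemokines and their receptors. They were taken by name from the 1266 genes measured in the cortex of 36 mice: every symbol that begins with Il and a digit, or with Ccl, Ccr, Cxcl, Cxcr, Tnf, Ifn, Tgfb or Csf, except Ccl3. There were 19 ligands and 25 receptors, and all 44 symbols matched the RefSeq gene table of GRCm38.p6. Of these, 27 had a mean log2 value of 5 or more over all mice, 9 ligands and 18 receptors, and the other 17, 10 ligands and 7 receptors, lay near the floor of the assay and are described apart. The members just above that line were Tnfrsf1b, Cxcl10 and Il6ra at mean log2 values of 5.08, 5.33 and 5.83. Those just under it were Il15ra, Il21r and Cxcr4 at 4.94, 4.88 and 4.84.

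The question was what coding changes in Plcg2, a phospholipase that signals downstream of surface receptors in microglia, do in a mouse model of amyloid plaques. All mice carried the 5xFAD transgenes, which express mutant human amyloid precursor protein and presenilin in neurons, and all were 7.5 months old. The 3 genotypes were 5xFAD alone, M28L_5xFAD with the M28L variant of Plcg2 and P522R_5xFAD with the P522R variant, here called 5xFAD, M28L and P522R mice, with 6 females and 6 males of each. Mice without 5xFAD were not used here, so each comparison is between plaque-bearing mice. RNA was measured with the Glial and Neuropathology panels of NanoString nCounter, which count barcoded probes on a fixed set of transcripts without amplification. The values are the authors' log2 values, so a difference of 1 is a 2-fold change, and a level is read only against the same probe's level in other mice.

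Cytokines and chemokines are secreted proteins with which cells of the brain signal to each other and to immune cells, and a message reaches only cells that carry the matching receptor. In the cortex, microglia depend on the receptor CSF1R for survival, whose ligands are CSF1, made by several cell types including microglia, and IL-34, made chiefly by neurons. TGF-beta binds TGFBR2, which then activates TGFBR1, and this signal maintains the resting identity of microglia. Chemokines such as CCL12 and CXCL10 attract leukocytes, while TNF and interleukin receptors pass on inflammatory signals.

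Recovered counts per mouse and panel totalled 237563 to 1957325. On the panel of 757 genes, 5xFAD and M28L females had totals of 921565 to 1239109 and the mice of the other 4 groups had 1295271 to 1957325. On the panel of 509 genes these females had 237563 to 338173. Mice of the other 4 groups had 404333 to 774198, except P522R male 30 at 259284. No run or batch is named in the labels. A run effect therefore cannot be told apart from an effect of P522R, of sex, or of P522R differing by sex. Neuronal, astrocyte and oligodendrocyte markers were at high levels, as the labelled cortex would have them, and none of the 11 measured microglial markers was under 27 counts in any mouse. Because the RNA came from whole cortex, fewer cells of a type and less RNA per cell cannot be told apart for any of the genes below.

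Few members differed between M28L and 5xFAD mice. Csf1, Tgfbr2 and Csf3r, the receptor of granulocyte colony stimulating factor, were lower in M28L mice. The monocyte chemokine gene Ccl12 and the near-floor death receptor gene Tnfrsf10b were higher. Only the Csf1 and Tgfbr2 calls held in all 49 alternatives of processing, model or mice used. The Ccl12, Csf3r and Tnfrsf10b calls were lost in 29 of 49, 11 of 49 and 23 of 47. With limma, 5 of 44 members passed an adjusted p of 0.05, which is 11.4% of members against 10.3% of all genes. There were 2 higher and 3 lower members, against 4.66% and 5.61% of all genes in those directions. Among members of mean log2 of 5 or more 4 of 27 passed, where 11.4% of such genes did, and near the floor 1 of 17, where 3.43% did. These shares are close to the background, so the number of members called is no result about them as a class. The median difference over all 44 was 0.02, beside 0.00 over all genes. Centring on housekeeping genes, which moved the median of all genes to 0.17, gave 10 higher and 2 lower members. That centring, also used below, rests on 2 measured genes that differed unequally, Gusb at -0.47 and Tbp at 0.14 in M28L mice and at -0.23 and 0.30 in P522R mice. The count was 2 without M28L females 20 or 28, and 3 without 5xFAD females 1189, 1190, 1248 or 1249, M28L males 10, 11 or 15, P522R female 49 or P522R male 21, each left out alone.

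In P522R mice, Csf1, Csf1r, Il34, Tgfbr2, Cxcl10 and 4 other receptors were higher than in 5xFAD mice, and Tgfbr1, Ccl12, Cxcl12 and Il18 were lower. Of 44 members 19 passed with limma, 15 higher and 4 lower, which is 43.2% against 65.4% of all genes. In those directions 40.5% and 24.9% of all genes passed. Members of mean log2 of 5 or more passed in 13 of 27 cases, where 65.4% of such genes did, and near-floor members in 6 of 17, all higher, where 65.1% did. The difference between these shares was not tested. Counts of list and marker genes called in P522R mice, given below, stand against the same 65.4%, and those in M28L mice against 10.3%. The median difference was 0.15 over members and 0.08 over all genes. At a mean log2 of 5 or more it was -0.02 over members and 0.04 over all such genes. Near the floor it was 0.29 over members and 0.58 over all such genes. Quantile normalization gave 9 higher and 8 lower members and centring on housekeeping genes 10 and 5.

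Set directly against M28L mice, P522R mice differed in 18 of 44 members, 12 higher and 6 lower, which is 40.9% against 67.6% of all genes. The background was 41.5% higher and 26.1% lower. At a mean log2 of 5 or more 14 of 27 members passed, beside 69.2% of such genes, and near the floor 4 of 17 did, beside 57.7%. Quantile normalization gave 8 higher and 10 lower members, and centring on housekeeping genes, which moved the median of all genes to -0.10, 5 and 11. This comparison shares its mice with the other 2 comparisons. The plot of differences shows both variants beside each other.

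**Figure D1:**
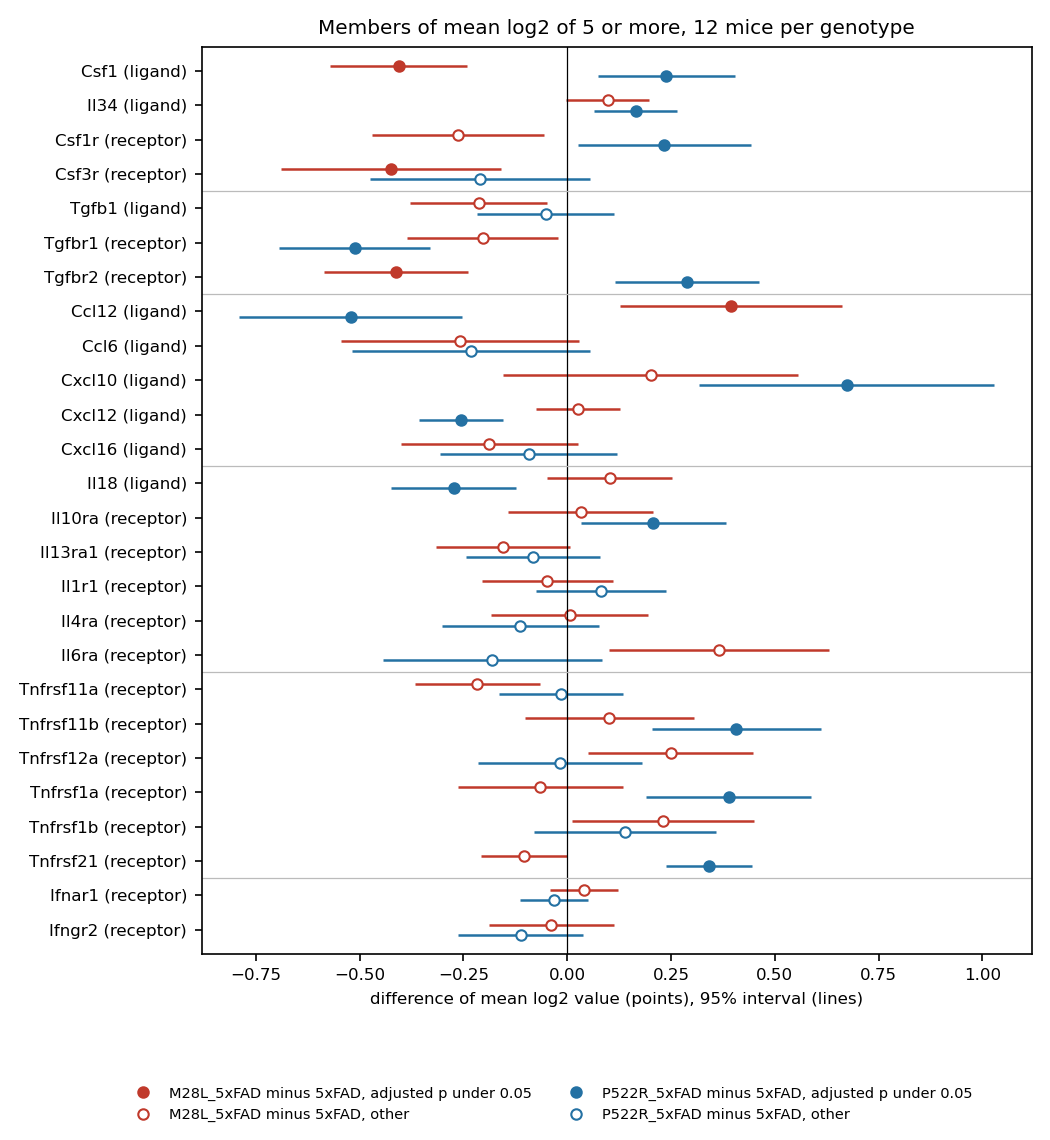
Difference of mean log2 value from 5xFAD mice (x axis) for members of mean log2 of 5 or more, ordered by family and role, with 95% intervals, in M28L mice (red) and P522R mice (blue), 12 mice per genotype. Filled points passed an adjusted p of 0.05 with limma; Csf1 and Tgfbr2 lie to the left of 0 in M28L mice and to the right in P522R mice, and Ccl12 lies the other way round.

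The upstream sequences of 4 members whose levels differed in these comparisons are given here, since Csf1 and Tgfbr2 moved in the same direction as each other and Ccl12 and Cxcl10 are the chemokines of mean log2 of 5 or more with the largest differences. Each is the 250 bases before the RefSeq transcription start in GRCm38.p6, written 5′ to 3′ along the gene: Csf1 at chr3:107760470-107760719, minus strand, Tgfbr2 at chr9:116175364-116175613, minus strand, Cxcl10 at chr5:92348890-92349139, minus strand, and Ccl12 at chr11:82101595-82101844, plus strand. Capitals mark exact matches, on either strand, to the interferon-stimulated response element (ISRE, as GAAA, any 2 bases, GAAA), the PU.1 site or the NF-kB consensus. The PU.1 site was searched as GAGGAAGT, and the NF-kB consensus as GGG, a purine, any 2 bases, 2 pyrimidines and CC.
Csf1: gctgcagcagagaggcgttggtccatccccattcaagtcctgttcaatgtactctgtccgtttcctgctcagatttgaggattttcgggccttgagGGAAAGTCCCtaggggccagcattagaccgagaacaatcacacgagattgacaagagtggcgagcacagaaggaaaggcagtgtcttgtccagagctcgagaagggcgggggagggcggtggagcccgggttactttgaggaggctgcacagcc
Tgfbr2: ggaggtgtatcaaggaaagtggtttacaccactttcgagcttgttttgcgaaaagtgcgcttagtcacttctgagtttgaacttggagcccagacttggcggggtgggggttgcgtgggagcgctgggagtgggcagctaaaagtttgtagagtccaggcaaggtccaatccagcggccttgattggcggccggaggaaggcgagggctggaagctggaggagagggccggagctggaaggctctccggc
Cxcl10: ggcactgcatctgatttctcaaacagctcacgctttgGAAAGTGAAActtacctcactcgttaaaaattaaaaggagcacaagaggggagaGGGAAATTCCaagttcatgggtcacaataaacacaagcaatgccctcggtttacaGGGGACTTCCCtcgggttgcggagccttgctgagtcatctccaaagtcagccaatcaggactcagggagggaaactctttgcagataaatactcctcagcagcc
Ccl12: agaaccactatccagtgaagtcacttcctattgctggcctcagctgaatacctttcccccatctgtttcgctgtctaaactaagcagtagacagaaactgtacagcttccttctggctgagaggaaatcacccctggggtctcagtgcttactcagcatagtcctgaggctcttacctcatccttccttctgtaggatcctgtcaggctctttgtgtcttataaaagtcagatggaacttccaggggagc
The Cxcl10 window held an interferon element at -213 to -204 from the start site and NF-kB matches at -159 to -150 and at the overlapping positions -104 to -95 and -103 to -94. The Csf1 window held an NF-kB match at -154 to -145. No exact match to these motifs was found in the Tgfbr2 or Ccl12 window, and no exact PU.1 match in any of the 4. Shorter or variant forms of the motifs were not searched. Of 32851 windows of this length in the table, 2.98% held the interferon element, 2.44% the PU.1 site and 7.25% the NF-kB consensus. A match is a run of letters and not a bound site.

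Csf1 encodes colony stimulating factor 1, a ligand of CSF1R. Csf1 in females ran from 8.60 to 8.90 (median 8.64) in 5xFAD mice, from 7.72 to 8.38 (median 8.26) in M28L mice and from 8.58 to 9.21 (median 9.06) in P522R mice. The Csf1 range in males was 8.62 to 9.06 (median 8.78), 8.30 to 8.71 (median 8.56) and 8.54 to 9.25 (median 9.03) in the same order. All M28L females lay below all 5xFAD females, and all P522R females above all M28L females, while the ranges of the males overlapped. Csf1 was 1.32-fold lower in M28L than in 5xFAD mice (-0.41 ± 0.08 SE, adjusted p = 0.000645 with limma), and lower in 12 of 12 mice than the 5xFAD mean of their sex. In P522R mice it was 1.18-fold higher than in 5xFAD mice (0.24 ± 0.08 SE, adjusted p = 0.0101), above that mean in 10 of 12 mice. Between the variants the difference was 0.64 ± 0.08 SE, adjusted p = 1.16e-08. The M28L difference was -0.52 ± 0.11 SE in females and -0.29 ± 0.11 SE in males. All 3 calls held in each of 49 alternatives, with M28L differences of -0.43 to -0.24.

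Il34 encodes the other ligand of CSF1R. Il34 in females ran from 9.33 to 9.72 (median 9.57) in 5xFAD mice, from 9.34 to 9.81 (median 9.69) in M28L mice and from 9.66 to 9.98 (median 9.92) in P522R mice. The Il34 range in males was 9.93 to 10.19 (median 10.04), 10.07 to 10.21 (median 10.15) and 9.99 to 10.18 (median 10.05) in the same order. Females lay lower than males on average in each genotype, and P522R females had the highest mean among the females, with overlapping ranges. The sex difference of -0.40 was close to the median of -0.38 over all genes, as given with the sexes below. Il34 was higher in P522R than in 5xFAD mice by 0.16 ± 0.05 SE, adjusted p = 0.0036 with limma, above the 5xFAD mean of their sex in 9 of 12 mice. The P522R difference was 0.32 ± 0.07 SE in females and 0.01 ± 0.07 SE in males, and the interaction with sex passed (0.31 ± 0.10 SE, adjusted p = 0.0218). For M28L mice the difference was 0.10 ± 0.05 SE, adjusted p = 0.223, with a 95% interval of -0.00 to 0.20. Centring on housekeeping genes and a fit without sex each ended the P522R call, at adjusted p = 0.223 and 0.176. Of 9 measured neuronal markers 6 were higher and 1 lower in P522R mice. The summed linear level of the 9 ran from 56645 to 65998 in P522R females and from 43501 to 52202 in 5xFAD females. Markers of other cells also differed, as given with Tnfrsf21 below, and the part of any marker in the result was not tested.

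Csf1r encodes the receptor of both ligands and is itself a gene of microglia and macrophages. Csf1r in females ran from 10.03 to 10.41 (median 10.17) in 5xFAD mice, from 9.1698 to 10.37 (median 9.98) in M28L mice and from 9.99 to 10.95 (median 10.54) in P522R mice. The Csf1r range in males was 10.12 to 10.70 (median 10.40), 9.98 to 10.41 (median 10.22) and 10.11 to 10.75 (median 10.57) in the same order. The genotypes overlapped in both sexes, with the lowest single value in an M28L female and the highest in a P522R female. Csf1r was 1.41-fold higher in P522R than in M28L mice (0.50 ± 0.10 SE, adjusted p = 5.94e-05 with limma, higher in 11 of 12 mice than the M28L mean of their sex). Against 5xFAD it was 0.23 ± 0.10 SE, adjusted p = 0.0429 in P522R mice, a call lost in 18 of 49 alternatives, and -0.26 ± 0.10 SE, adjusted p = 0.0986 in M28L mice, which did not pass. Csf3r, a receptor of neutrophils and microglia, was at -0.42 ± 0.13 SE in M28L mice (adjusted p = 0.0302), below the 5xFAD mean of their sex in 12 of 12 mice. Csf3r in females ran from 5.49 to 6.77 (median 6.35) in 5xFAD mice, from 5.49 to 6.03 (median 5.82) in M28L mice and from 5.53 to 6.68 (median 6.43) in P522R mice. The Csf3r range in males was 5.98 to 6.56 (median 6.31), 5.64 to 6.21 (median 5.98) and 5.40 to 6.47 (median 5.83) in the same order. The Csf3r ranges overlapped in both sexes, and the call was lost in 11 of 49 alternatives, among them centring on housekeeping genes (-0.26, adjusted p = 0.0911) and a fit without sex (adjusted p = 0.118). No neutrophil marker of the list was measured.

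**Figure D2:**
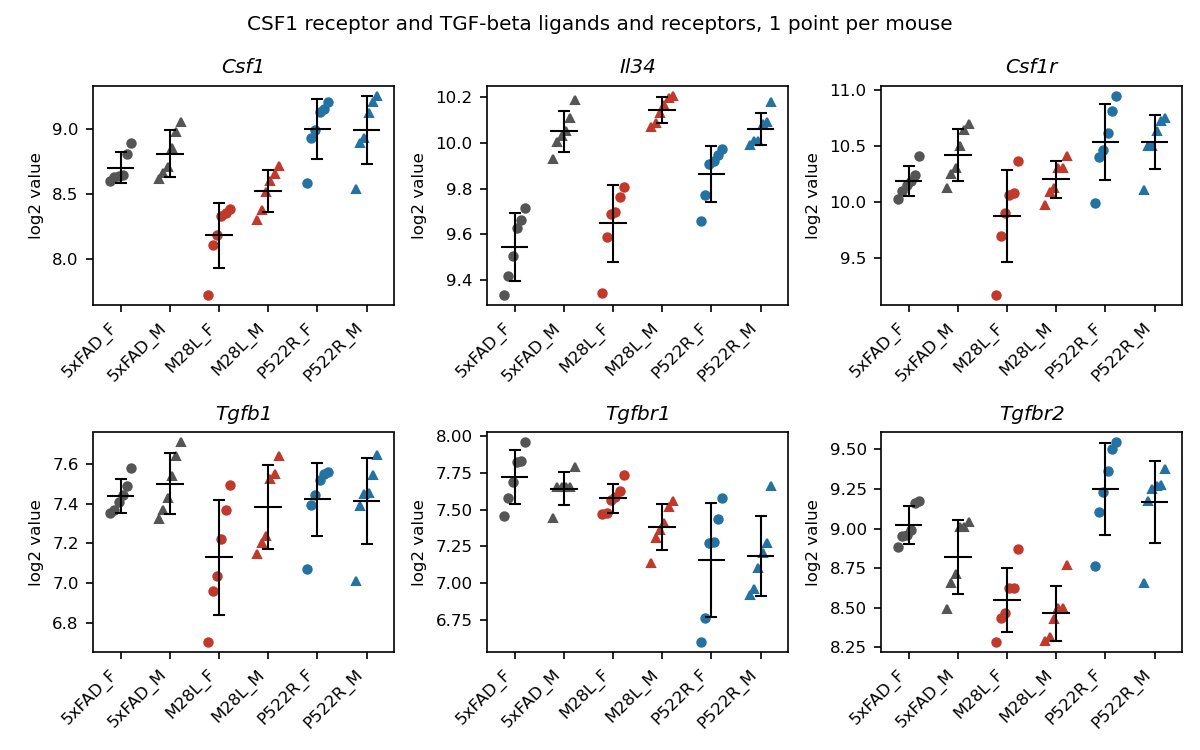
Log2 value (y axis) of the CSF1 receptor genes Csf1, Il34 and Csf1r and the TGF-beta genes Tgfb1, Tgfbr1 and Tgfbr2 in each of 36 mice, circles for females and triangles for males, ordered by value within a group, with the mean and SD of 6 mice in black. The means of Csf1 and Tgfbr2 are lowest in M28L mice and highest in P522R mice in both sexes. Il34 is lower in females than in males by 0.40, close to the median shift of 0.38 over all genes.

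Microglial markers bear on Csf1r, Csf1 and Tgfbr2 and were measured in the same mice. Of 12 listed markers 11 were measured, and in M28L mice 2 of them were lower and 1 higher with limma, with Cx3cr1 at -0.42 (adjusted p = 0.00438). In P522R mice 1 was higher and 4 lower than in 5xFAD mice, with Tmem119 at 0.48 and Aif1 at -0.80. Their summed linear level was 8780 to 11885 in 5xFAD females, 6889 to 9260 in M28L females and 7199 to 14389 in P522R females. In males it was 7879 to 10342, 6716 to 9542 and 6683 to 11127. The part of these markers in the differences of Csf1, Csf1r and Tgfbr2 was not tested.

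Csf1 and Csf1r varied together from mouse to mouse. Over 36 mice, each taken as its deviation from its group's mean, Pearson's r was 0.85 and Spearman's rho 0.81, each with a permutation p of 1e-05, the smallest 100000 permutations within groups can give (adjusted p = 4e-05 over 8 pairs). Within the groups of 6, r ran from 0.12 to 0.99 and was above 0 in all 6. Without the 2 mice farthest from the median r was 0.79. In both genes 3 mice lay far below their group means, and without them, a choice made after seeing the data, r was 0.72 and rho 0.75 over 33 mice. On values centred on the median of each panel r was 0.83, with r within groups from -0.48 to 0.99 and above 0 in 5 of 6. Both probes are on the panel of 757 genes and so share its scaling constant in each mouse. For Il34 and Csf1r, r was -0.23 and rho -0.04 (permutation p = 0.275 and 0.811, adjusted p = 0.275 and 0.811), and on values centred within each panel r was -0.45 and rho -0.25 (permutation p = 0.0396 and 0.179, adjusted p = 0.0529 and 0.239). The summed microglial markers had r = 0.57 with Csf1r, 0.58 with Csf1 and 0.81 with Tgfbr2 (permutation p = 0.00104, 0.00108 and 1e-05; adjusted p = 0.00194, 0.00194 and 4e-05), and 0.20 with Il34 (permutation p = 0.261, adjusted p = 0.275). Without the 2 farthest mice these were 0.41, 0.38, 0.71 and 0.44, and within groups r ran from -0.64 to 0.97 with Csf1r, from -0.42 to 0.97 with Csf1 and from 0.23 to 0.94 with Tgfbr2. On values centred within each panel r was 0.50 with Csf1r, 0.50 with Csf1, 0.70 with Tgfbr2 and -0.03 with Il34. Without the 2 farthest mice the centred values were 0.31, 0.27, 0.60 and 0.26. The 4 pairs with the marker sum were chosen after values had been seen.

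**Figure D3:**
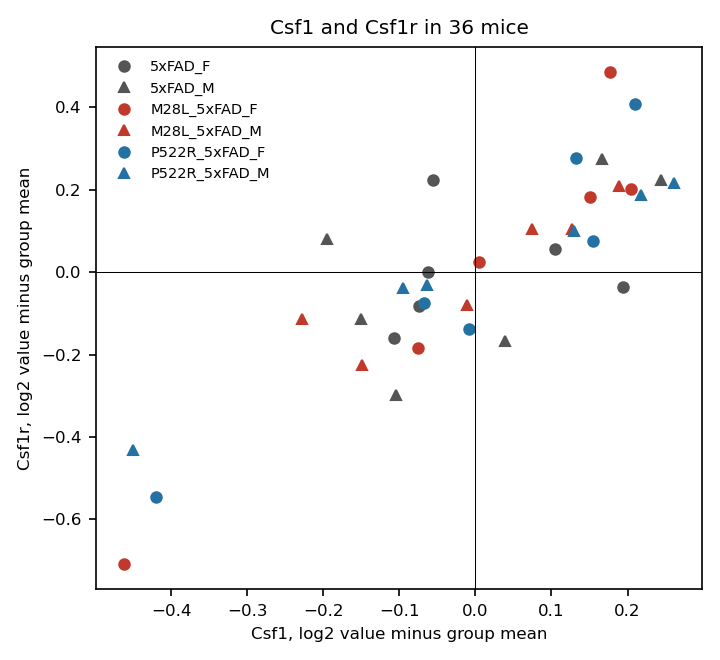
Csf1 (x axis) and Csf1r (y axis) in 36 mice, each as the log2 value minus the mean of its group of 6, with colour for genotype, circles for females and triangles for males. Points rise from lower left to upper right (r = 0.85), and 3 mice, 1 M28L female, 1 P522R female and 1 P522R male, lie at the lower left.

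Tgfbr2 encodes the receptor that binds TGF-beta. Tgfbr2 in females ran from 8.88 to 9.18 (median 8.98) in 5xFAD mice, from 8.28 to 8.87 (median 8.54) in M28L mice and from 8.76 to 9.54 (median 9.29) in P522R mice. The Tgfbr2 range in males was 8.49 to 9.04 (median 8.86), 8.29 to 8.77 (median 8.46) and 8.66 to 9.37 (median 9.26) in the same order. All M28L females lay below all 5xFAD females, and the other neighbouring ranges overlapped. Tgfbr2 was 1.33-fold lower in M28L mice (-0.41 ± 0.08 SE, adjusted p = 0.000916 with limma, lower in 12 of 12) and 1.22-fold higher in P522R mice (0.29 ± 0.08 SE, adjusted p = 0.00344, higher in 10 of 12). Between the variants it differed by 0.70 ± 0.08 SE, adjusted p = 5.66e-09, and P522R mice stood above the M28L mean of their sex in 12 of 12. All 3 calls held in each of 49 alternatives. Tgfbr1 encodes the signalling partner that TGFBR2 activates, and in P522R mice it differed from 5xFAD in the opposite direction. Tgfbr1 in females ran from 7.46 to 7.96 (median 7.76) in 5xFAD mice, from 7.47 to 7.73 (median 7.58) in M28L mice and from 6.601 to 7.58 (median 7.28) in P522R mice. The Tgfbr1 range in males was 7.44 to 7.79 (median 7.66), 7.13 to 7.56 (median 7.38) and 6.92 to 7.66 (median 7.15) in the same order. The P522R mice included the lowest values in both sexes, with overlapping ranges. Tgfbr1 was 1.43-fold lower in P522R than in 5xFAD mice (-0.51 ± 0.09 SE, adjusted p = 5.52e-06) and lower than in M28L mice by -0.31 ± 0.09 SE as a signed difference (adjusted p = 0.00279), and both calls held in each of 49 alternatives. In M28L mice it was at -0.20 ± 0.09 SE, adjusted p = 0.147, which did not pass.

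Tgfb1, which encodes the ligand, passed in no genotype comparison. Tgfb1 in females ran from 7.35 to 7.58 (median 7.43) in 5xFAD mice, from 6.70 to 7.50 (median 7.13) in M28L mice and from 7.07 to 7.56 (median 7.48) in P522R mice. The Tgfb1 range in males was 7.32 to 7.71 (median 7.48), 7.15 to 7.64 (median 7.38) and 7.01 to 7.64 (median 7.45) in the same order. The genotypes overlapped in each sex. Its difference was -0.21 ± 0.08 SE, adjusted p = 0.0888 in M28L mice and -0.05 ± 0.08 SE, adjusted p = 0.579 in P522R mice, with 95% intervals of -0.38 to -0.05 and -0.22 to 0.11. Across mice, Tgfb1 and Tgfbr2 had r = 0.59 and rho = 0.55 as deviations from group means (permutation p = 0.00121 and 0.00174, adjusted p = 0.00194 and 0.00278), and 0.59 without the 2 farthest mice. Within groups r ran from 0.17 to 0.97. On values centred within each panel r was 0.53, and within groups it ran from -0.09 to 0.98. For Tgfb1 and Tgfbr1 r was 0.26 and rho 0.20 (permutation p = 0.134 and 0.252, adjusted p = 0.178 and 0.289). Of the TGF-beta and SMAD list 1 of 23 genes was measured: Smad3, a transcription factor that the receptors activate, rose by 0.25 in M28L mice (adjusted p = 0.00739 with limma) and by 0.48 in P522R mice (adjusted p = 3.85e-08).

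Ccl12 encodes a monocyte chemoattractant of mice. Ccl12 in females ran from 6.14 to 6.85 (median 6.5997) in 5xFAD mice, from 6.63 to 7.55 (median 7.03) in M28L mice and from 5.64 to 6.48 (median 5.94) in P522R mice. The Ccl12 range in males was 5.99 to 6.73 (median 6.495), 6.28 to 7.87 (median 6.63) and 5.76 to 6.35 (median 5.97) in the same order. All P522R females lay below all M28L females, the ranges of P522R and 5xFAD mice overlapped, and 1 M28L male at 7.87, with 238 counts, stood apart from the other 5 at 6.28 to 6.79. Ccl12 was 1.89-fold lower in P522R than in M28L mice (-0.92 ± 0.13 SE, adjusted p = 1.59e-07 with limma), below the M28L mean of their sex in 12 of 12. It was 1.44-fold lower in P522R than in 5xFAD mice (-0.52 ± 0.13 SE, adjusted p = 0.000788, lower in 12 of 12). Both of these calls held in each of 49 alternatives. In M28L mice it was higher by 0.39 ± 0.13 SE, adjusted p = 0.0483, and this call was lost in 29 of 49 alternatives, with differences of 0.29 to 0.56. Cd163, the only measured marker of border macrophages and monocytes among 8 listed, was at 0.80 in P522R mice (adjusted p = 0.000127 with limma). It lay near the floor at a mean log2 of 4.76, and the median P522R difference over genes near the floor was 0.58. Its linear levels overlapped, at 19.4 to 46.3 in P522R and 11.7 to 23.7 in 5xFAD females. The part of Cd163 in the Ccl12 result was not tested.

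Cxcl10 encodes an interferon-induced chemokine that attracts T cells. Cxcl10 in females ran from 3.72 to 5.53 (median 5.15) in 5xFAD mice, from 4.78 to 5.55 (median 5.43) in M28L mice and from 5.1250 to 5.86 (median 5.68) in P522R mice. The Cxcl10 range in males was 3.86 to 5.65 (median 5.27), 4.87 to 5.58 (median 5.10) and 5.40 to 6.27 (median 5.78) in the same order. The groups overlapped, and 1 5xFAD female at 3.72 and 1 5xFAD male at 3.86, with 10 and 11 counts, stood below the other mice of their groups. Cxcl10 was 1.59-fold higher in P522R than in 5xFAD mice (0.67 ± 0.17 SE, adjusted p = 0.001 with limma, above the 5xFAD mean of their sex in 12 of 12) and held in each of 49 alternatives, with values of 0.43 to 0.80. Against M28L mice it was 0.47 ± 0.17 SE, adjusted p = 0.0163, a call that ended with centring on housekeeping genes (0.27, adjusted p = 0.137). For M28L mice the difference from 5xFAD was 0.20 ± 0.17 SE, adjusted p = 0.529, with a 95% interval of -0.15 to 0.56. The dimmest genes of the panel were also higher in P522R mice, as given with the near-floor members below, and Cxcl10 had 10 to 85 counts.

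Cxcl12 encodes a chemokine of vessels, meninges and neurons, the ligand of CXCR4. Cxcl12 in females ran from 9.21 to 9.55 (median 9.46) in 5xFAD mice, from 9.22 to 9.72 (median 9.59) in M28L mice and from 9.20 to 9.43 (median 9.34) in P522R mice. The Cxcl12 range in males was 9.83 to 10.10 (median 10.05), 9.93 to 10.04 (median 9.97) and 9.42 to 9.71 (median 9.64) in the same order. All P522R males lay below all males of the other genotypes, while the females overlapped. Cxcl12 was 1.19-fold lower in P522R than in 5xFAD mice (-0.26 ± 0.05 SE, adjusted p = 3.22e-05 with limma), below the 5xFAD mean of their sex in 11 of 12. The difference was -0.09 ± 0.07 SE in females and -0.42 ± 0.07 SE in males, and the interaction with sex passed (0.33 ± 0.10 SE, adjusted p = 0.0176). Against M28L mice it was -0.28 ± 0.05 SE, adjusted p = 6.82e-06, which median centring within each panel took to -0.05 (adjusted p = 0.404). Of 8 listed endothelial markers 4 were measured and 2 were lower in P522R than in 5xFAD mice, with Cldn5 at -0.48 (adjusted p = 1.31e-05 with limma). In M28L mice limma called only Cldn5 of these 4 markers, at -0.55 (adjusted p = 4.03e-05). Their summed linear level was 525 to 665 in P522R males, 769 to 1020 in 5xFAD males and 659 to 715 in M28L males, and in females it was 461 to 645, 431 to 662 and 340 to 465. Their part in the Cxcl12 result was not tested.

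The ligand genes Ccl6 and Cxcl16 passed in no genotype comparison. Of the fractalkine and chemoattractant list 6 of 17 genes were measured. In M28L mice 2 of these 6 were lower, the complement receptor gene C3ar1 at -0.51 and the fractalkine receptor gene Cx3cr1 at -0.42 (adjusted p = 0.0021 and 0.00438), and in P522R mice 2 were higher and 1 lower, with the fractalkine gene Cx3cl1 at 0.71 (adjusted p = 3.67e-08) and the tetraspanin gene Cd9 at -0.44 (adjusted p = 8.85e-05).

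Il18, a cytokine of the interleukin 1 family that inflammasomes activate by cleavage, was, beside Il34, the only interleukin gene of a ligand at a mean log2 of 5 or more. Il18 in females ran from 8.25 to 8.73 (median 8.52) in 5xFAD mice, from 8.38 to 9.26 (median 8.62) in M28L mice and from 7.89 to 8.21 (median 8.07) in P522R mice. The Il18 range in males was 8.47 to 8.65 (median 8.61), 8.42 to 8.68 (median 8.59) and 8.16 to 8.74 (median 8.51) in the same order. All P522R females lay below all females of the other genotypes, and the males overlapped. Il18 was 1.21-fold lower in P522R than in 5xFAD mice (-0.27 ± 0.07 SE, adjusted p = 0.00153 with limma, below the 5xFAD mean of their sex in 9 of 12) and 1.30-fold lower than in M28L mice (-0.38 ± 0.07 SE, adjusted p = 3.23e-05), and both calls held in each of 49 alternatives. The P522R difference was -0.45 ± 0.10 SE in females and -0.09 ± 0.10 SE in males, but the interaction with sex did not pass (-0.36 ± 0.15 SE, adjusted p = 0.0782). For M28L mice it was 0.10 ± 0.07 SE, adjusted p = 0.442. Of the inflammasome list 6 of 12 genes were measured, with 0 called in M28L mice by limma, and 0 at an unadjusted p under 0.05, and 1 higher and 2 lower in P522R mice, among them the ATP-gated channel gene P2rx4 at -0.40 (adjusted p = 3.55e-05) and Casp8 at -0.33 (adjusted p = 0.0128).

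Of the interleukin receptors of mean log2 of 5 or more, Il6ra and Il10ra passed in a genotype comparison. Il6ra, the receptor subunit that binds interleukin 6, was 1.46-fold lower in P522R than in M28L mice (-0.55 ± 0.13 SE, adjusted p = 0.000383 with limma, lower in 10 of 12). Il6ra in females ran from 5.18 to 5.81 (median 5.51) in 5xFAD mice, from 5.74 to 6.02 (median 5.88) in M28L mice and from 4.52 to 6.02 (median 5.17) in P522R mice. The Il6ra range in males was 5.45 to 6.39 (median 6.12), 6.11 to 6.58 (median 6.41) and 5.32 to 6.49 (median 6.09) in the same order. The groups overlapped, and against 5xFAD neither variant passed, at 0.37 ± 0.13 SE, adjusted p = 0.0634 for M28L and -0.18 ± 0.13 SE, adjusted p = 0.215 for P522R. The M28L difference had the same sign in 12 of 12 mice. Il10ra, the ligand-binding chain of the interleukin 10 receptor, was higher in P522R mice by 0.21 ± 0.09 SE, adjusted p = 0.0322, a call lost in 10 of 49 alternatives. Il10ra in females ran from 5.998 to 6.37 (median 6.05) in 5xFAD mice, from 5.84 to 6.22 (median 6.08) in M28L mice and from 5.76 to 6.45 (median 6.25) in P522R mice. The Il10ra range in males was 5.80 to 6.38 (median 6.10), 5.90 to 6.44 (median 6.29) and 6.135 to 6.603 (median 6.42) in the same order. These ranges overlapped in both sexes.

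Il13ra1 and Il1r1 differed between the sexes in their response to P522R. Il13ra1 encodes a receptor chain for interleukins 4 and 13, and Il1r1 the receptor of interleukin 1. Il13ra1 in females ran from 7.42 to 7.79 (median 7.74) in 5xFAD mice, from 7.13 to 7.86 (median 7.44) in M28L mice and from 7.02 to 7.41 (median 7.38) in P522R mice. The Il13ra1 range in males was 7.22 to 7.69 (median 7.44), 7.06 to 7.55 (median 7.42) and 7.46 to 7.82 (median 7.67) in the same order. P522R females lay below all 5xFAD females for Il13ra1, and the males overlapped. The Il13ra1 difference was -0.33 ± 0.11 SE in females and 0.16 ± 0.11 SE in males (interaction -0.49 ± 0.16 SE, adjusted p = 0.0254 with limma). For Il1r1 it was -0.15 ± 0.11 SE and 0.32 ± 0.11 SE (interaction -0.47 ± 0.15 SE, adjusted p = 0.0277), with overlapping ranges in both sexes. Averaged over the sexes neither passed in P522R mice (adjusted p = 0.369 and 0.351). Without P522R female 8 the Il13ra1 interaction was -0.43 and did not pass, and without 5xFAD female 1249, P522R female 49 or P522R male 29 the Il1r1 interaction was -0.43, -0.42 or -0.41 and did not pass.

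Of the JAK-STAT and gp130 list, the route of most interleukin and interferon receptors, 9 of 24 genes were measured. In M28L mice limma called 0 of these 9, with 2 at an unadjusted p under 0.05, and in P522R mice 4 were higher and 1 lower, with Jak1 at 0.22 (adjusted p = 5.62e-07) and Stat3 at 0.34 (adjusted p = 5.52e-06). That is 5 of 9 in P522R mice, where 65.4% of all genes passed. The medians of the 9 differences were -0.07 and 0.22, beside 0.00 and 0.08 over all genes. Of the interferon response list 7 of 29 genes were measured, with 0 called by limma in M28L mice, 2 at an unadjusted p under 0.05, and 2 higher and 1 lower in P522R mice: Stat2, a transcription factor of interferon signalling, was at 0.28 (adjusted p = 0.00177) and the guanylate-binding protein gene Gbp2 at -0.52 (adjusted p = 0.00466). The receptor genes Ifnar1 and Ifngr2, for type I interferons and interferon gamma, passed in no genotype comparison. Ifnar1 in females ran from 8.91 to 9.18 (median 9.01) in 5xFAD mice, from 8.99 to 9.22 (median 9.06) in M28L mice and from 8.87 to 9.18 (median 8.96) in P522R mice. The Ifnar1 range in males was 9.11 to 9.36 (median 9.29), 9.25 to 9.36 (median 9.29) and 9.18 to 9.35 (median 9.24) in the same order. Within a sex the Ifnar1 ranges overlapped. Its differences were 0.04 ± 0.04 SE in M28L mice, -0.03 ± 0.04 SE in P522R mice and -0.07 ± 0.04 SE between the variants (adjusted p = 0.105), with a 95% interval of -0.11 to 0.05 for P522R mice. Ifngr2 in females ran from 8.33 to 9.01 (median 8.73) in 5xFAD mice, from 8.01 to 8.91 (median 8.76) in M28L mice and from 8.62 to 8.97 (median 8.76) in P522R mice. The Ifngr2 range in males was 9.157 to 9.29 (median 9.174), 9.13 to 9.25 (median 9.159) and 8.72 to 9.07 (median 8.91) in the same order. All P522R males lay below all males of the other genotypes for Ifngr2, while the females overlapped. Its P522R difference was 0.07 ± 0.10 SE in females and -0.29 ± 0.10 SE in males, and neither the difference over both sexes (-0.11 ± 0.07 SE, adjusted p = 0.177 with limma) nor the interaction with sex (0.35 ± 0.15 SE, adjusted p = 0.0846) passed.

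Among receptors of the TNF family, Tnfrsf21, which encodes death receptor 6 of neurons and other cells, had the smallest adjusted p. Tnfrsf21 in females ran from 9.55 to 9.71 (median 9.65) in 5xFAD mice, from 9.10 to 9.71 (median 9.55) in M28L mice and from 9.94 to 10.19 (median 10.05) in P522R mice. The Tnfrsf21 range in males was 9.93 to 10.19 (median 10.00), 9.86 to 10.02 (median 9.96) and 10.14 to 10.44 (median 10.31) in the same order. P522R females lay above all females of the other genotypes, and P522R males above all M28L males. Tnfrsf21 was 1.27-fold higher in P522R than in 5xFAD mice (0.34 ± 0.05 SE, adjusted p = 3.21e-07 with limma, higher in 12 of 12) and 1.36-fold higher than in M28L mice (0.45 ± 0.05 SE, adjusted p = 1.42e-09), and both calls held in each of 49 alternatives. In M28L mice the difference was -0.10 ± 0.05 SE, adjusted p = 0.209. The summed neuronal markers given with Il34 were also higher, at 70389 to 81587 in P522R males beside 64618 to 66921 in 5xFAD males. In P522R mice 3 of 3 oligodendrocyte precursor, 4 of 6 astrocyte and 4 of 8 oligodendrocyte markers were higher too with limma. Lower were 1 oligodendrocyte, 2 endothelial and 4 microglial markers, and 1 microglial marker was higher. The part of any of these markers was not tested.

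Tnfrsf1a encodes the main receptor of soluble TNF. Tnfrsf1a in females ran from 6.84 to 7.09 (median 6.88) in 5xFAD mice, from 6.53 to 6.90 (median 6.83) in M28L mice and from 6.498 to 7.66 (median 7.39) in P522R mice. The Tnfrsf1a range in males was 7.122 to 7.55 (median 7.29), 7.03 to 7.58 (median 7.32) and 7.19 to 7.98 (median 7.70) in the same order. The ranges overlapped, and 1 P522R female, with 114 counts, stood below the other 5, which lay at 7.35 to 7.66. Tnfrsf1a was 1.31-fold higher in P522R than in 5xFAD mice (0.39 ± 0.10 SE, adjusted p = 0.000711 with limma) and 1.37-fold higher than in M28L mice (0.45 ± 0.10 SE, adjusted p = 0.000107), in 10 of 12 mice in both cases, and both calls held in each of 49 alternatives. Tnfrsf11b, the gene of the decoy receptor osteoprotegerin, was higher in P522R mice by 0.41 ± 0.10 SE, adjusted p = 0.000574 against 5xFAD and by 0.31 ± 0.10 SE, adjusted p = 0.00742 against M28L. Tnfrsf11b in females ran from 5.20 to 6.19 (median 5.84) in 5xFAD mice, from 5.67 to 6.134 (median 6.05) in M28L mice and from 5.55 to 6.52 (median 6.14) in P522R mice. The Tnfrsf11b range in males was 5.96 to 6.41 (median 6.02), 5.88 to 6.23 (median 6.11) and 6.26 to 6.88 (median 6.53) in the same order. P522R males lay above all M28L males, and the other ranges overlapped. The second Tnfrsf11b call ended with centring on housekeeping genes (0.10, adjusted p = 0.423).

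Tnfrsf11a, the gene of the receptor RANK, and Tnfrsf12a, the gene of the receptor of TWEAK, passed between the variants and not against 5xFAD. Tnfrsf11a was higher in P522R than in M28L mice by 0.20 ± 0.07 SE, adjusted p = 0.0156 with limma, and its M28L difference from 5xFAD was -0.22 ± 0.07 SE, adjusted p = 0.0524. Centring on housekeeping genes took the first value to -0.00056. Tnfrsf11a in females ran from 5.94 to 6.33 (median 6.23) in 5xFAD mice, from 5.94 to 6.23 (median 6.07) in M28L mice and from 6.19 to 6.41 (median 6.32) in P522R mice. The Tnfrsf11a range in males was 6.19 to 6.76 (median 6.43), 5.82 to 6.40 (median 6.15) and 6.12 to 6.43 (median 6.34) in the same order. These groups overlapped in both sexes. Tnfrsf12a was lower in P522R than in M28L mice (-0.27 ± 0.10 SE, adjusted p = 0.0155), and median centring within each panel took this to -0.04 (adjusted p = 0.751). Mean Tnfrsf12a values were 6.76 in M28L and 6.21 in P522R females, with overlapping ranges. In males the means were 6.71 and 6.73, and whether the difference between the variants varied with sex was not tested. The route from TNF, interleukin 1 and Toll-like receptors to NF-kB was represented by 11 of 37 listed genes, of which 2 were higher and 2 lower in M28L mice and 3 higher and 1 lower in P522R mice. Tlr2, a receptor of bacterial lipoproteins, was at -0.53 and the inhibitor gene Nfkbia at 0.47 in M28L mice (adjusted p = 0.000381 and 0.00055), and the subunit gene Rela at 0.27 and the adaptor gene Ticam1 at 0.57 in P522R mice (adjusted p = 5.69e-05 and 5.81e-05). Between the variants 3 of the 11 were higher and 2 lower in P522R mice, with Tlr2 at 0.57 (adjusted p = 4.81e-06).

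**Figure D4:**
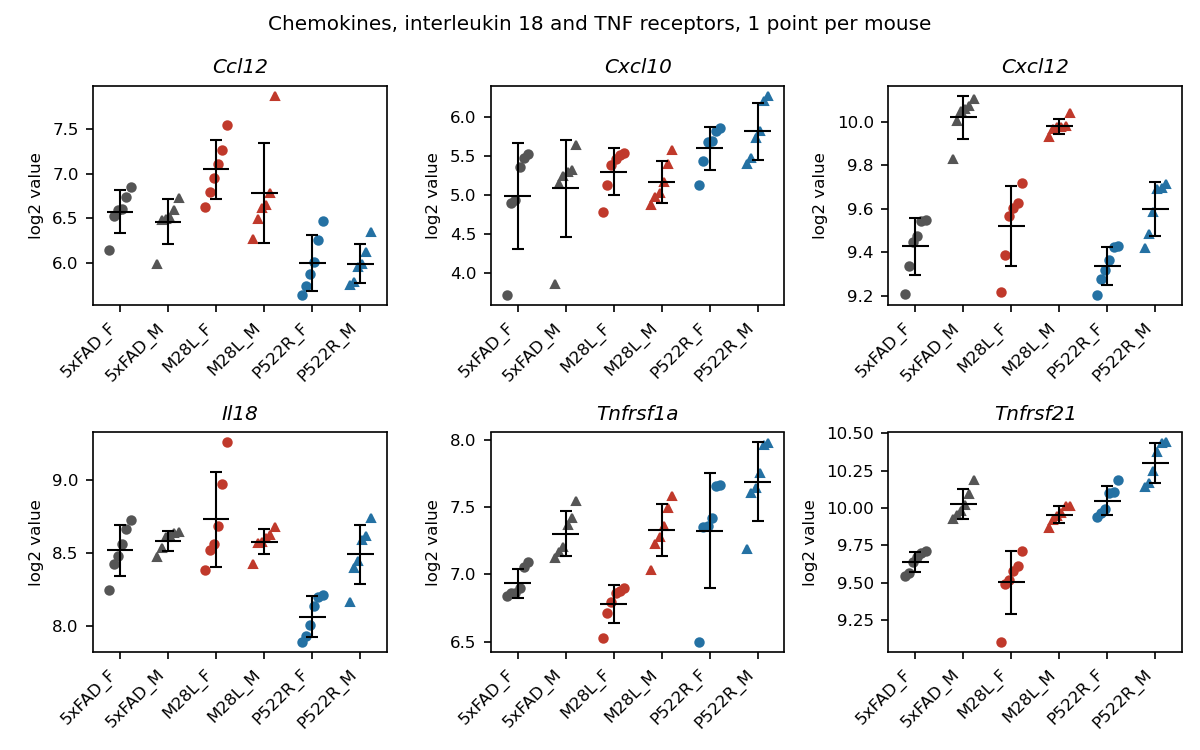
Log2 value (y axis) of the chemokine genes Ccl12, Cxcl10 and Cxcl12, of Il18 and of the TNF receptor genes Tnfrsf1a and Tnfrsf21 in each of 36 mice, circles for females and triangles for males, ordered by value within a group, with the mean and SD of 6 mice in black. P522R mice have the lowest means for Ccl12 and the highest for Tnfrsf21 in both sexes, and the M28L male at 7.87 stands apart for Ccl12.

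In all, 10 of the 27 members of mean log2 of 5 or more passed in no genotype comparison, among them Ccl6, Cxcl16, Il1r1, Il4ra, Il13ra1, Tgfb1, Tnfrsf1b, Ifnar1 and Ifngr2. Their differences ran from -0.26 to 0.23 on the log2 scale, with a lowest adjusted p of 0.0744 by limma.

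Females had lower deposited values than males in most members, as in most genes. With limma 25 of 44 members were lower in females and 0 higher, which is 56.8% against 86.4% of all genes, where 83.7% were lower and 2.69% higher. All genes together had a median of -0.38, so the shift is one of the whole table, and member differences are read against it. Relative to that median the call and direction turned with the scaling: 14 members were higher and 6 lower after median centring, 14 and 5 with centring within each panel, 18 and 3 after quantile normalization, and 8 and 8 with centring on housekeeping genes. Cxcl12 (-0.44 ± 0.04 SE), Il34 (-0.40 ± 0.04 SE), Tnfrsf21 (-0.36 ± 0.04 SE), Ifnar1 (-0.25 ± 0.03 SE) and Ifngr2 (-0.36 ± 0.06 SE) had the smallest p among members of mean log2 of 5 or more (adjusted p = 3.84e-12, 2.09e-11, 4.18e-10, 1.82e-08 and 1.06e-06). Of these, Ifnar1 reversed under all 4 scalings, to 0.01 to 0.08, Cxcl12 reversed to 0.04 with centring within each panel, Il34 and Tnfrsf21 lost the call under 3 scalings and Ifngr2 under all 4.

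No member's M28L difference varied with sex at the threshold. For the interaction of M28L and sex limma called 0 of 44 members and 0% of all genes, and 5 members and 34 of 1266 genes had an unadjusted p under 0.05. Among members of mean log2 of 5 or more, Il1r1 (-0.35 ± 0.15 SE) and Il4ra (-0.39 ± 0.19 SE) had the smallest p, and Il18 and Csf1 were at 0.22 ± 0.15 SE and -0.24 ± 0.16 SE. For the interaction of P522R and sex 6 of 44 members passed, 4 with a higher and 2 with a lower difference in females, which is 13.6% against 20.9% of all genes. The median interaction was 0.10 over all genes and 0.27 over genes of mean log2 under 5, so single values are read against a shift of the whole table. Over the members these medians were -0.00 and, near the floor, 0.02. These were Cxcl12, Il34, Il13ra1 and Il1r1, given above, and the near-floor Tnfrsf10b and Cxcl15. Median centring gave 3 called members, 0 higher and 3 lower, centring within each panel 2 higher and 2 lower, quantile normalization 2 and 4, and centring on housekeeping genes 0, with 56 of 1266 genes called. The Cxcl12 interaction was lost under median centring (0.20) and centring within each panel (0.24), and the Il34 interaction under median centring (0.18) and without 5xFAD female 1180 (0.27).

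Near the floor, 17 members had few counts in every group: the ligands Il1a, Il1b, Il4, Il6, Il10, Ccl2, Ccl5, Cxcl11, Cxcl15 and Tnf, and the receptors Il15ra, Il21r, Ccr2, Cxcr4, Csf2rb, Tnfrsf10b and Tnfrsf17. In 5xFAD and M28L females 90.2% and 95.1% of their values were under 20 counts, and in the other 4 groups 61.8% to 66.7%. The 100 dimmest genes of the 757-gene panel had a median of 8.58 counts in 5xFAD females and in M28L females, 16.1 in 5xFAD males, 16.3 in M28L males, 18.7 in P522R females and 18.8 in P522R males. The near-floor members had medians of 8, 9, 15, 16, 17 and 18 counts in these groups, close to the dimmest genes in each. Over the 175 genes of mean log2 under 5, the median P522R difference from 5xFAD was 0.58, and over these 17 members it was 0.29. The part of this shift of dim genes in each call below was not tested.

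**Figure D5:**
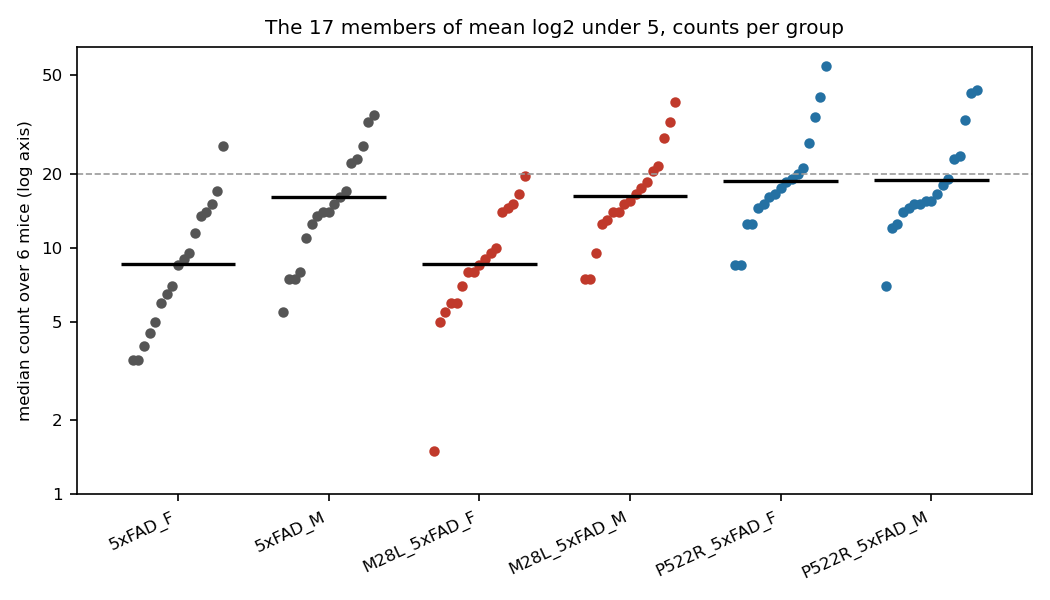
Median count over the 6 mice of a group (y axis, log scale) of each of the 17 members of mean log2 under 5, ordered by value within a group, with the mean over mice of the median count of the 100 dimmest genes as a black bar and 20 counts as a dashed line. Members lie around the bar in each group, with medians of 8 and 9 counts in 5xFAD and M28L females and 15 to 18 in the other 4 groups.

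Cxcl11, a ligand of the same receptor as Cxcl10, had the smallest P522R p among them. Cxcl11 in females ran from 2 to 5 (median 4.5) in 5xFAD mice, from 4 to 9 (median 8) in M28L mice and from 9 to 17 (median 14.5) in P522R mice. The Cxcl11 range in males was 5 to 14 (median 7.5), 6 to 14 (median 7.5) and 12 to 26 (median 15) in the same order. All counts, which are not scaled for depth, were low; 5xFAD females had at most 5 and P522R females at least 9, while the log2 ranges of these females overlapped. On the log2 scale the P522R difference was 1.01 ± 0.21 SE, adjusted p = 9.23e-05 with limma, which quantile normalization took to 0.23 (adjusted p = 0.314). Tnfrsf10b, which encodes a receptor of the death ligand TRAIL, was at 0.80 ± 0.23 SE, adjusted p = 0.00305 in P522R and 0.71 ± 0.23 SE, adjusted p = 0.0473 in M28L mice. Tnfrsf10b in females ran from 1 to 6 (median 3.5) in 5xFAD mice, from 5 to 14 (median 6) in M28L mice and from 8 to 27 (median 17.5) in P522R mice. The Tnfrsf10b range in males was 8 to 20 (median 12.5), 9 to 19 (median 15.5) and 5 to 24 (median 15.5) in the same order. The 5xFAD females had the fewest counts, and males of the genotypes overlapped, so that the P522R difference was 1.49 ± 0.33 SE in females and 0.12 ± 0.33 SE in males. Quantile normalization took the P522R value to 0.04 (adjusted p = 0.877), and the M28L call was lost in 23 of 47 alternatives.

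The anti-inflammatory cytokine gene Il10 was at 0.81 ± 0.31 SE, adjusted p = 0.023 in P522R mice with limma and reversed to -0.09 after quantile normalization. Its log2 values ran from 1.49 to 3.53 in 5xFAD mice and from 1.94 to 4.18 in P522R mice, so the groups overlapped. Cxcr4, the receptor of CXCL12, was at 0.48 ± 0.19 SE, adjusted p = 0.0256, with log2 values of 5.23 to 5.91 in P522R males and 4.34 to 5.10 in 5xFAD males, which do not overlap, and 1 P522R female at 2.84 stood below the other 5. Tnf (0.43 ± 0.19 SE, adjusted p = 0.0493) and Il15ra (0.25 ± 0.11 SE, adjusted p = 0.0496) also passed in P522R mice and lost the call in 27 and 32 alternatives, and Tnf reversed to -0.25 after quantile normalization. The Tnf difference was 0.85 ± 0.28 SE in females, where 5xFAD mice had 4 to 8 counts, and 0.02 ± 0.28 SE in males. Against M28L mice, P522R mice passed in Cxcl15 (0.54 ± 0.17 SE, adjusted p = 0.0045), Il4 (0.73 ± 0.27 SE, adjusted p = 0.0159), Cxcr4 (0.48 ± 0.19 SE, adjusted p = 0.0241) and Il10 (0.72 ± 0.31 SE, adjusted p = 0.0411). The Il10 call was lost in 14 of 47 alternatives, 10 of them with 1 mouse left out, and the Cxcr4 call in 4 of 48, among them without P522R female 24 (0.42). Il4 had 1 to 5 counts in M28L females and reversed to -0.24 with quantile normalization, where Cxcl15 was also no longer called. Mean Il4 log2 values were 1.18 in M28L and 2.79 in P522R females, but 2.81 and 2.65 in the males, the opposite direction. Between the sexes Il15ra, Cxcl15 and Ccr2 had the smallest p near the floor, at -0.70 ± 0.09 SE, -0.72 ± 0.14 SE and -0.74 ± 0.15 SE against a shift of -0.64 over the 175 dim genes. For M28L and sex Il4, Cxcl11 and Tnfrsf10b had the smallest p, at -1.61 ± 0.53 SE, 1.21 ± 0.42 SE and 1.24 ± 0.47 SE, none of which passed (adjusted p over 0.99 each). For P522R and sex these were Tnfrsf10b (1.37 ± 0.47 SE, adjusted p = 0.0329), Cxcl15 (0.94 ± 0.33 SE, adjusted p = 0.0387) and Csf2rb (-0.98 ± 0.43 SE, adjusted p = 0.108). The Cxcl15 interaction call was lost in 17 of 46 alternatives, 10 of them with 1 mouse left out, and the Tnfrsf10b call in 11 of 46, 7 of them with 1 mouse left out. In M28L mice Cxcl11 and Ccr2 followed Tnfrsf10b, at 0.58 ± 0.21 SE, adjusted p = 0.072 and 0.49 ± 0.19 SE, adjusted p = 0.0968, and did not pass.

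Markers of lymphoid and mast cells, which make or bear many of these near-floor members, were mostly near the floor too. In P522R mice 6 of 8 measured T cell markers, 6 of 7 NK cell markers, 2 of 3 B cell markers and 4 of 5 mast cell markers were higher than in 5xFAD mice with limma, and 0 were lower. Of these, 5 T cell markers and all NK, B and mast cell markers had means under 20 counts, and Cd3d, Cd3e, Cd8a and Ncr1 were among those with 1 count in at least 1 mouse. In the same comparison 65.4% of all genes and 65.1% of genes of mean log2 under 5 were called in either direction. Of all genes 40.5% were higher. Median differences were 0.55 over T cell, 1.01 over NK cell, 0.89 over B cell and 0.84 over mast cell markers. Over all genes of mean log2 under 5 the median was 0.58. Whether these small counts single out a cell type was not tested. Cd4 and Cd6, with means of 196.5 and 47.6 counts, lay above the floor, and Cd4 is the largest term of the T cell sum. The summed linear level of the 8 T cell markers was 243 to 323 in 5xFAD females, 209 to 310 in M28L females and 286 to 389 in P522R females, and 270.3 to 377, 305 to 360.1 and 358 to 539 in the males, with overlap of P522R and 5xFAD mice in both sexes. For the 7 NK cell markers it was 28.6 to 49.5, 36.5 to 65.3 and 61.0 to 100.5 in females and 67.8 to 91.9, 57.0 to 79.6 and 97.5 to 148 in males, where P522R and 5xFAD mice did not overlap. The part of these cells in the near-floor members was not tested.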

How the data were processed

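RNA of 36 cortices was measured on 2 NanoString nCounter panels. The authors deposited log2 values, with a normalization not given in the sources used here. In each mouse and panel the linear values were whole multiples of 1 value (100.0% whole, tolerance 0.05), which split the 1266 genes into panels of 757 and 509 and gave recovered counts of 237563 to 1957325 per mouse and panel. Of 1517 rows 251 named no gene and were left out. Members and lists were chosen with earlier results of these data known.

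Groups of genotype and sex were fitted to the log2 values of all 36 mice with limma 3.58.1 (R 4.3.3), with a variance trend, and p-values were adjusted over 1266 genes by Benjamini-Hochberg (threshold 0.05). Genotype differences average the sexes. The fit was tested on simulated data. Mice carry separate animal numbers except 2 M28L females, which share number 14. Members of mean log2 of 5 or more were named when called, up to 12 per genotype comparison by adjusted p, or when among the 5 of smallest p for sex or an interaction, or the highest of their family and role; near-floor members were named when among the 3 of smallest p, and list genes up to 2 per list. Other members are named so that all are accounted for, a choice made with their values known; 1 member and 1 marker gene are counted but not reported here by name. Alternatives were 13 changes of scaling, filter, pseudocount or model, and leaving out each mouse. Upstream sequences are RefSeq's (GRCm38.p6); 32 of 44 members had one.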

Additional observations from a re-analysis of the deposited data

Results flagged for a closer look

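Single mice stood apart from the other 5 of their group, by Dixon's criterion, in 20 of 264 groups checked; chance gives about 1 in 20 groups. Among members of mean log2 of 5 or more, log2 values were high for Il10ra in 5xFAD female 1253 (6.37), Ccl12 in M28L male 9 (7.87) and Tnfrsf11b in 5xFAD male 1269 (6.41). Values were low for Il13ra1 in P522R female 8 (7.02), Ccl12 in 5xFAD male 1182 (5.99), Cxcl10 in 5xFAD female 1189 (3.72) and 5xFAD male 1182 (3.86), and Ifngr2 in M28L female 12 (8.01). They were also low for Tgfb1 and Tnfrsf1a in P522R female 60 (7.07 and 6.498), Tgfbr2 in P522R male 27 (8.66) and Tnfrsf21 in M28L female 20 (9.10).

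Near the floor, Tnfrsf10b was high in M28L female 28 (4.68). Low values were those of Il1a in P522R male 27 (3.82), Il6 in 5xFAD female 1249 (3.19), Il21r in 5xFAD female 1180 (4.08) and M28L female 12 (3.33), Ccl5 in P522R male 31 (3.55), Cxcr4 in P522R female 60 (2.84) and Tnfrsf10b in 5xFAD female 1189 (0.39). These 8 values rest on 1 to 14 counts.

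The P522R difference was tested between the sexes, as females minus males, with limma. It differed for Cxcl12 (0.33), Il34 (0.31), Il13ra1 (-0.49), Il1r1 (-0.47) and, near the floor, Cxcl15 (0.94) and Tnfrsf10b (1.37). The median was 0.10 over all genes and 0.27 over genes of mean log2 under 5. The Cxcl15 call was lost in 17 of 46 alternatives and the Tnfrsf10b call in 11 of 46.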

How the results depend on the processing

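With limma 5 members were called between M28L and 5xFAD mice, and 12 with centring on housekeeping genes, 2 without a sex term and 3 with the index number of the labels as a replicate block. That block gave 17 members for P522R against 5xFAD, 18 for P522R against M28L, 27 for sex and 5 for P522R and sex. The index numbers did not pair the mice: over 22 same-number pairs r ran from -0.26 to 0.21, with 4 over 0.1. Leaving out 1 mouse gave 2 to 7 members for M28L, 15 to 20 for P522R, 17 to 20 between the variants, 23 to 27 for sex, 4 to 7 for P522R and sex and 0 for M28L and sex. For sex, housekeeping centring gave 16 and a filter at a mean log2 of 5 gave 14; for P522R and sex, median centring gave 3 and housekeeping centring 0. Quantile normalization reversed Il10 (-0.086 in P522R against 5xFAD, -0.11 against M28L), Tnf (-0.25) and Il4 (-0.24), and housekeeping centring reversed Tnfrsf11a (-0.00056). Between the sexes Ifnar1 reversed with median centring (0.082), centring within each panel (0.013), quantile normalization (0.084) and housekeeping centring (0.018), and Cxcl12 with centring within each panel (0.035). The causes were not tested. Of the members called, 2 of 5 for M28L, 10 of 19 for P522R and 9 of 18 between the variants kept their call in every alternative run. Counts under 20 limit most near-floor members.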
